A study of Mus musculus with 15 samples.

Results

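The genes described here are 10 G protein-coupled receptors of the suprachiasmatic nucleus (SCN), the paired hypothalamic nucleus that holds the central circadian pacemaker of mammals. They were chosen by symbol, not by their values: Vipr2, Avpr1a, Grpr, Prokr2, Adcyap1r1, Npy1r, Npy2r, Npy5r, Mtnr1a and Gpr176. All 10 are among the 24419 genes of the count table, and all 10 were among the 16910 genes with enough reads to be tested. RNA was sequenced from punches of the SCN of C57BL/6 mice aged 8 to 12 weeks, in 15 libraries of 4 groups. At circadian time (CT) 4, in the subjective day, there were 3 libraries labelled REV-ERBS DKO, a double knockout of REV-ERB alpha and beta, and 3 control libraries. At CT16, in the subjective night, there were 4 DKO and 5 control libraries. Each library pooled 2 to 4 punches, and the labels do not tie pools to mice. The sources used here do not name the Cre line, the alleles or what the controls carry.

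SCN neurons keep a common phase by signalling to each other through peptides, and they receive time cues through others. Vasoactive intestinal peptide (VIP), made by neurons of the SCN core, acts on VPAC2, the product of Vipr2, and its loss desynchronises SCN neurons in mice. Arginine vasopressin from the SCN shell acts on V1a, gastrin-releasing peptide on the product of Grpr, and prokineticin 2 on the product of Prokr2. PAC1, the product of Adcyap1r1, binds PACAP, which is released with glutamate by retinal axons. The Y1, Y2 and Y5 receptors bind neuropeptide Y, which reaches the SCN from the intergeniculate leaflet, and MT1, the product of Mtnr1a, binds melatonin from the pineal. Gpr176 encodes an orphan receptor that lowers cAMP through Gz. REV-ERB alpha and beta, the products of Nr1d1 and Nr1d2, are nuclear receptors that repress transcription and belong to the molecular clock.

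Total counts per library ran from 32580803 to 68757624, and a receptor gene had between 25 reads (Mtnr1a) and 38531 reads (Adcyap1r1) in a library. The counts of Nr1d1 and Nr1d2 did not fall in the libraries labelled DKO: they differed from control by -0.02 ± 0.14 and 0.47 ± 0.09 on the log2 scale (SE) at CT4, and by 1.15 ± 0.12 and 1.07 ± 0.07 at CT16. The table sums all exons of a gene, so these counts cannot show the loss of some exons and are no check of the labels. The libraries also differed in the levels of genes that mark the SCN, its neighbours and other cell types. The mean log2 level of 6 SCN identity genes (Six6, Six3, Lhx1, Rorb, Zfhx3 and Syt10), centred on all 15 libraries and called the SCN score here, ran from -0.455 to -0.445 in DKO and from -0.149 to 0.8288 in control at CT4, with no overlap. At CT16 it ran from -0.404 to 0.501 in DKO and from -0.486 to 0.371 in control. The summed level of the 6 genes was 285 to 302 CPM in DKO and 338 to 633 CPM in control at CT4, and 295 to 524 CPM in DKO and 324 to 489 CPM in control at CT16. A score of 16 markers of neighbouring hypothalamic nuclei ran from 0.651 to 1.33 in DKO and from -0.957 to 0.689 in control at CT4. At CT16 this score ran from -1.11 to 1.19 in DKO and from -0.842 to 0.430 in control. The summed level of the 16 markers was 857 to 949 CPM in DKO and 490 to 839 CPM in control at CT4. At CT16 the sum was 458 to 828 CPM in DKO and 774 to 1072 CPM in control. Sum and score did not always go together: control CT16 replicate 4 had the highest sum, at a score of -0.383. Other marker scores also parted at CT4, with no overlap for ependyma and tanycytes (0.245 to 0.592 in DKO and -0.489 to 0.141 in control), astrocytes (-0.00344 to 0.0260 in DKO and 0.0783 to 0.204 in control) and endothelium (0.108 to 0.221 in DKO and 0.228 to 0.393 in control). The scores of microglia, neurons and myelin overlapped, and myelin spread most at CT16, from -0.622 to 1.61 in DKO and from -0.962 to 0.662 in control. The part of these other cell types in the receptor levels was not tested. In bulk RNA, fewer cells of a type and less RNA per cell cannot be told apart.

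Scaled to exon length, 1 receptor stood far above the others. Adcyap1r1 had a median of 90.5 CPM (counts scaled to library size) per kb of exon over the 15 libraries, with a range of 74.1 to 97.2 CPM per kb, and 96.2% of the tested genes had a lower mean level. Vipr2 came next at 14.5 CPM per kb (6.52 to 40.1), and its whole range lay below that of Adcyap1r1. Gpr176 at 9.44 CPM per kb (7.96 to 11.4), Npy2r at 8.92 (4.87 to 14.6), Prokr2 at 8.63 (3.40 to 21.7) and Npy1r at 7.38 (4.84 to 12.8) had overlapping ranges. Avpr1a at 3.80 CPM per kb (2.44 to 8.00), Npy5r at 3.07 (2.58 to 4.18), Grpr at 1.83 (1.36 to 3.91) and Mtnr1a at 1.02 (0.422 to 1.51) were the lowest of the 10, and 19.5% of the tested genes had a lower mean level than Mtnr1a. Below Adcyap1r1, the range of every receptor overlapped that of the next in order. The order also changed with the group: in the DKO libraries at CT4, Npy2r ranked 2 and Vipr2 ranked 5.

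**Figure D1:**
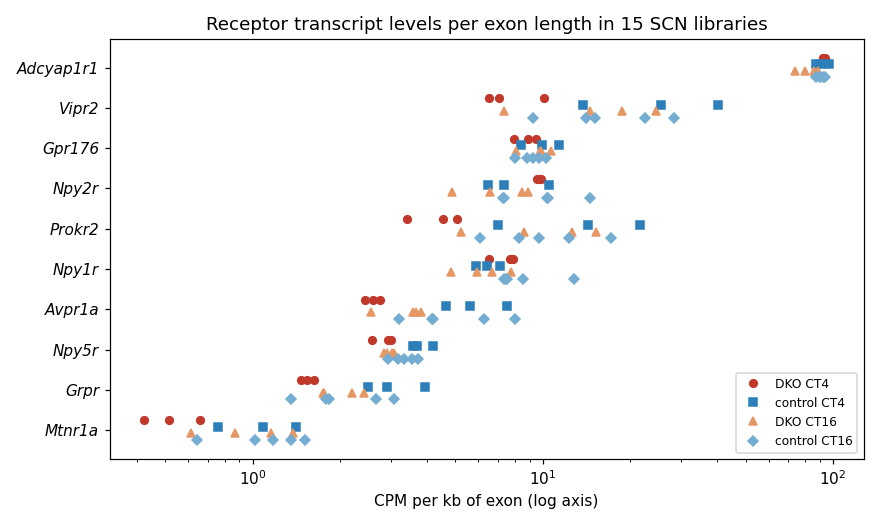
Levels of the 10 receptor transcripts in CPM per kb of exon on a log axis, 1 point per library, ordered by the median over all 15 libraries. Adcyap1r1 lies at 74.1 to 97.2 CPM per kb, apart from all others, and Vipr2 and Prokr2 spread more widely than Gpr176 or Npy5r.

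The receptors also differed in spread. Between the lowest and the highest of the 15 libraries, Prokr2 spanned a 6.36-fold range and Vipr2 a 6.15-fold range in CPM. Mtnr1a spanned 3.58-fold, Avpr1a 3.27-fold, Npy2r 2.995-fold, Grpr 2.88-fold and Npy1r 2.64-fold. Npy5r at 1.62-fold, Gpr176 at 1.43-fold and Adcyap1r1 at 1.31-fold were the steadiest of the 10. Vipr2 and Prokr2 moved as a pair: the ratio of Prokr2 to Vipr2 CPM stayed between 0.644 and 0.945 in all 15 libraries, a 1.47-fold range. The ratio of Vipr2 to Adcyap1r1 CPM spanned a 6.52-fold range over the same libraries.

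The genes lie at 10 separate sites of mm10, and none shares an exon with another gene of the table. Vipr2 is on chromosome 12 (116077726 to 116146261, plus strand), Avpr1a on chromosome 10 (122448499 to 122453453, plus), Grpr on chromosome X (163513904 to 163549736, minus) and Adcyap1r1 on chromosome 6 (55451978 to 55501455, plus). Prokr2 (132370329 to 132385447, minus) and Gpr176 (118277098 to 118373419, minus) are both on chromosome 2, and Npy2r is on chromosome 3 (82538383 to 82548085, minus). On chromosome 8 lie Mtnr1a (45069210 to 45088506, plus), Npy5r (66679965 to 66688094, minus) and Npy1r (66697422 to 66706798, plus). Npy5r and Npy1r are neighbours transcribed away from each other, with 9328 bases between them.

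The 250 bases before each RefSeq gene start (GRCm38.p6) were read for 3 motifs on both strands. The E-box CACGTG, bound by CLOCK and BMAL1, is in 2 of the 10 promoters, Mtnr1a and Npy5r, and in 6.02% of 32851 RefSeq promoters of that length. AGGTCA, the core motif of REV-ERB and ROR sites, is in 1 of the 10, Prokr2, and in 14% of all. The cAMP response element TGACGTCA is in none of the 10 and in 1.55% of all. No motif found overlaps another. The promoters with a motif are shown with that motif in capitals, and that of Vipr2, which holds none of the 3 in this window, is shown because its transcript moved with that of Prokr2. Each reads 5′ to 3′ along the gene's own strand.
Vipr2, chr12:116077476-116077725, plus strand: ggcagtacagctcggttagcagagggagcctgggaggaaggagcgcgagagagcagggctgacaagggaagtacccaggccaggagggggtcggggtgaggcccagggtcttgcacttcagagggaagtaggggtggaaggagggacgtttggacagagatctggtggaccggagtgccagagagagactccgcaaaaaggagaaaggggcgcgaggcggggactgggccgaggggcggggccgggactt
Prokr2, chr2:132385448-132385697, minus strand: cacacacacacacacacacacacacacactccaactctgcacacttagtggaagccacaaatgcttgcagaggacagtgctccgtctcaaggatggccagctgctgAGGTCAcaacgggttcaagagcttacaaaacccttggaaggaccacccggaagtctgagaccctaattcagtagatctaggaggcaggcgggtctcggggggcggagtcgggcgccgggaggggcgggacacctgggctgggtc
Mtnr1a, chr8:45068857-45069106, plus strand: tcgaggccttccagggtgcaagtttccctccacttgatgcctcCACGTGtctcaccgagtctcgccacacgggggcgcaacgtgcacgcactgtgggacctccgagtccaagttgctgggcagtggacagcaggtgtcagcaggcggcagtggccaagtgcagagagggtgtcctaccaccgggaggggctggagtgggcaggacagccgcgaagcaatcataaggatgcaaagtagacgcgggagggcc
Npy5r, chr8:66688095-66688344, minus strand: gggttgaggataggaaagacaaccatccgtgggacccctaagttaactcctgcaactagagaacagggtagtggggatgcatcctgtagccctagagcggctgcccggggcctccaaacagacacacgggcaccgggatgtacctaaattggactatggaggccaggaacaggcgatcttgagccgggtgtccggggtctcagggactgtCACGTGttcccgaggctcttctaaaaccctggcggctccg
In Mtnr1a the E-box lies 207 to 202 bases before the RefSeq start, in Npy5r 40 to 35 bases before it, and in Prokr2 the AGGTCA lies 144 to 139 bases before it. The Mtnr1a window ends at 45069106, upstream of the gene start given above (45069210). The Mtnr1a E-box would lie outside 250 bases counted from that start. These matches are letters in a window, and no binding was measured here.

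The first question of the design is what the loss of both REV-ERBs did at each time. At CT4, 6 of the 10 receptors had every DKO library below every control library: Vipr2, Avpr1a, Grpr, Prokr2, Npy5r and Mtnr1a. Of all tested genes, 13.3% were lower in this way and 25.4% did not overlap in either direction. None of the 10 passed the test across all genes in the edgeR fit to the 15 libraries (Benjamini-Hochberg adjusted p under 0.05, called from here on), against 1.28% of all tested genes. The same 6 receptors had an unadjusted p under 0.05, all lower in DKO, where 8.54% of all tested genes did so. The median log2 difference was -0.72 over the 10 receptors and -0.00226 over all tested genes. With DESeq2, 5 of the 6 were called at CT4, all but Mtnr1a, against 3.59% of the genes with an adjusted p in that fit. A further fit left out control CT4 replicate 1 and replicates 3 and 4 of DKO at CT16. These 3 libraries were chosen with earlier results of these data known. In that fit edgeR called Vipr2, Prokr2 and Grpr lower in DKO, at -2.06 ± 0.45, -2.06 ± 0.43 and -1.14 ± 0.28, against 3.61% of all tested genes. Control CT4 replicate 1 is the control library with the lowest level of each of these 3 receptors at CT4, so leaving it out raises the control mean by itself. Without control CT4 replicate 2, the highest control library for all 3, the differences were -1.32 for Vipr2, -1.30 for Prokr2 and -0.80 for Grpr, and none was called.

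Vipr2, the VIP receptor, had 34.2, 23.96 and 22.1 CPM in DKO libraries at CT4, against 46.8, 136 and 86.8 CPM in control libraries. The 3 DKO libraries lie close together and the 3 control libraries far apart, with no overlap. The mean was 26.7 ± 6.53 CPM in DKO and 89.8 ± 44.6 CPM in control (SD, n = 3 each), a log2 difference of -1.75 ± 0.53 with an adjusted p of 0.150 in edgeR's quasi-likelihood test. DESeq2 gave Vipr2 an adjusted p of 0.0178. At CT16 Vipr2 had 49.1, 63.4, 25.0 and 83.3 CPM in DKO and 75.9, 95.8, 47.5, 51.3 and 31.3 CPM in control, and the groups overlapped widely. The difference of -0.13 ± 0.42 had a 95% interval from -1.05 to 0.78.

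Prokr2, the prokineticin receptor, followed Vipr2 library by library. At CT4 it had 22.9, 15.4 and 20.5 CPM in DKO and 31.8, 98.2 and 65.1 CPM in control, a log2 difference of -1.73 ± 0.51 (adjusted p of 0.137 in edgeR and 0.0140 in DESeq2). As for Vipr2, the groups did not overlap, and control replicate 1 was the lowest of the control libraries. At CT16 Prokr2 had 39.1, 57.2, 23.6 and 69.3 CPM in DKO and 55.9, 77.9, 37.6, 44.0 and 27.5 CPM in control. These groups overlapped, with a difference of -0.04 ± 0.40 (95% interval from -0.92 to 0.83).

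Avpr1a, the V1a vasopressin receptor, had 6.93, 6.52 and 7.33 CPM in DKO at CT4, against 12.4, 20.2 and 15.001 CPM in control. All 3 DKO libraries lie below the lowest control library, and the log2 difference was -1.20 ± 0.30 (adjusted p of 0.0681 in edgeR and 0.00119 in DESeq2). At CT16 Avpr1a had 10.2, 9.80, 6.82 and 9.53 CPM in DKO and 16.7, 21.4, 11.1, 11.2 and 8.54 CPM in control. Of the 5 control libraries, 4 lie above all DKO libraries and replicate 5 lies among them. The CT16 difference of -0.61 ± 0.24 had an unadjusted p of 0.0245 and an adjusted p of 0.176 in the edgeR test. Without control CT16 replicate 2, the highest library, it was -0.39 ± 0.20 (unadjusted p of 0.0686). At CT4, Avpr1a was called by edgeR without control CT16 replicate 2 (adjusted p of 0.0274, against 1.19% of all tested genes called) or without control CT16 replicate 5 (0.0446, against 1.22%), which enter the shared estimate of spread.

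Grpr, the gastrin-releasing peptide receptor, had 3.99, 3.78 and 4.20 CPM in DKO at CT4 and 6.46, 10.1 and 7.49 CPM in control. The groups did not overlap, and the difference of -1.01 ± 0.26 had the smallest adjusted p of the 10 receptors at CT4 (0.0645 in edgeR). At CT16 Grpr had 4.50, 5.69, 4.55 and 6.27 CPM in DKO and 6.89, 7.93, 3.51, 4.74 and 4.63 CPM in control. Without control CT16 replicate 2 or replicate 3, Grpr was called at CT4 by edgeR, with adjusted p of 0.0402 and 0.0498, against 1.19% and 0.787% of all tested genes called. At CT16 the DKO libraries lie within the range of the control libraries, with a difference of -0.08 ± 0.21.

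Mtnr1a, the MT1 melatonin receptor, was the least abundant, with 25 to 118 reads per library. It had 0.635, 0.987 and 0.774 CPM in DKO at CT4 and 1.14, 2.12 and 1.62 CPM in control, a log2 difference of -1.03 ± 0.36 (adjusted p of 0.187 in edgeR). At CT16 it had 1.74, 1.31, 0.924 and 2.07 CPM in DKO and 1.77, 2.27, 1.53, 2.03 and 0.966 CPM in control, and the groups overlapped. The pars tuberalis of the pituitary, which lies near the SCN, also expresses MT1 strongly. Of 9 pars tuberalis and pituitary markers, 5 were tested, and their summed level was 65.3 CPM in control CT4 replicate 2, 39.1 CPM in control CT16 replicate 2, 14.9 CPM in control CT16 replicate 1 and 0.854 to 2.38 CPM in all others. Mtnr1a was highest within the control group at each time in replicate 2 (2.12 and 2.27 CPM). Vipr2, Prokr2, Avpr1a, Grpr and the SCN score were also highest within the control group in those libraries. At CT16 Mtnr1a had 2.07 CPM in DKO replicate 4 and 2.03 CPM in control replicate 4, with marker sums of 1.83 and 0.854 CPM. Control CT16 replicate 1, with a sum of 14.9 CPM, had 1.77 CPM of Mtnr1a. Without control CT4 replicate 2 the Mtnr1a difference at CT4 was -0.78, and the part of those markers in it was not tested further.

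**Figure D2:**
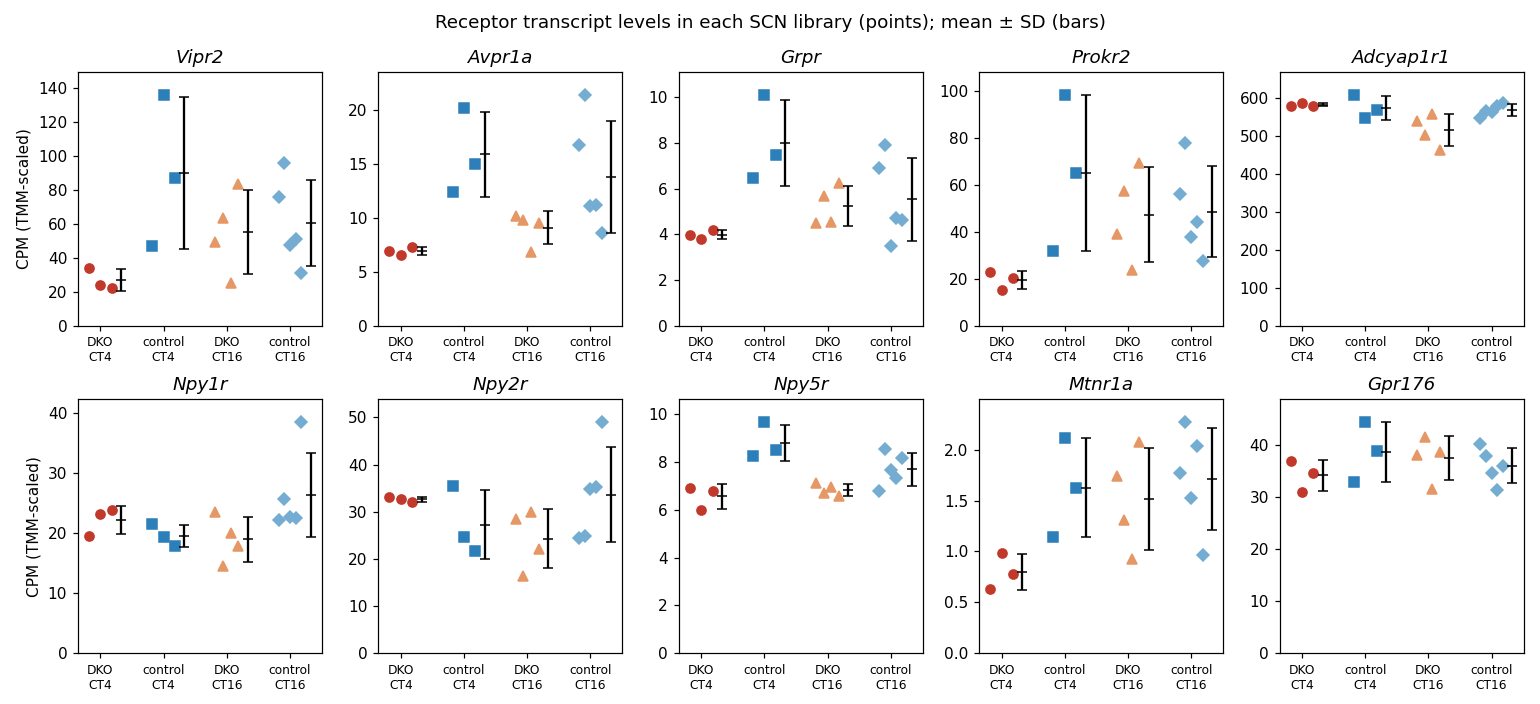
CPM of the 10 receptors in each library (points) with the group mean ± SD (bars), DKO left of control at CT4 and at CT16, each panel on its own linear axis from 0. For Vipr2, Prokr2, Avpr1a, Grpr, Npy5r and Mtnr1a the 3 DKO libraries at CT4 lie below the 3 control libraries, and at CT16 the groups overlap for all 10 receptors.

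The 3 neuropeptide Y receptors did not move together. Npy5r had 6.93, 5.98 and 6.79 CPM in DKO at CT4 and 8.25, 9.68 and 8.50 CPM in control, with no overlap and a log2 difference of -0.42 ± 0.11 (adjusted p of 0.0770 in edgeR and 0.0190 in DESeq2). Npy1r had 19.6, 23.1 and 23.8 CPM in DKO and 21.4, 19.3 and 17.8 CPM in control, and Npy2r had 33.2, 32.6 and 32.0 CPM in DKO and 35.4, 24.7 and 21.7 CPM in control. Both overlapped, and both estimates lay above 0, at 0.18 ± 0.21 for Npy1r and 0.26 ± 0.28 for Npy2r.

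At CT16 all 3 had estimates below 0. Npy1r had 23.4, 14.6, 20.0 and 17.8 CPM in DKO and 22.2, 25.7, 22.7, 22.5 and 38.4 CPM in control. Of the 4 DKO libraries, 3 lie below all control libraries, and the difference was -0.47 ± 0.17 (adjusted p of 0.135 in edgeR and 0.0428 in DESeq2). Control replicate 5 had the highest level, and without it the difference was -0.30 ± 0.12. Npy2r had 28.5, 16.4, 30.0 and 22.1 CPM in DKO and 24.4, 24.8, 34.7, 35.2 and 49.0 CPM in control, with overlap and a difference of -0.47 ± 0.23, or -0.30 ± 0.21 without control replicate 5. Npy5r had 7.11, 6.71, 6.97 and 6.57 CPM in DKO and 6.80, 8.56, 7.67, 7.32 and 8.19 CPM in control, with a difference of -0.17 ± 0.09.

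Adcyap1r1, the PACAP receptor, was nearly level across genotypes. It had 579, 586 and 578 CPM in DKO at CT4 and 607, 545 and 567 CPM in control, and the difference of 0.02 ± 0.06 had a 95% interval from -0.11 to 0.15. At CT16 it had 538, 502, 556 and 463 CPM in DKO and 547, 565, 563, 577 and 586 CPM in control. Of the 4 DKO libraries, 3 lie below all control libraries, and the difference was -0.14 ± 0.05 (adjusted p of 0.135 in edgeR), or -0.09 ± 0.05 without DKO replicate 4. Gpr176 had 36.9, 31.1 and 34.7 CPM in DKO at CT4 and 32.9, 44.5 and 39.0 CPM in control, with overlap and a difference of -0.18 ± 0.12 (95% interval from -0.43 to 0.07). At CT16 it had 38.2, 41.7, 31.6 and 38.7 CPM in DKO and 40.3, 38.0, 34.6, 31.4 and 36.1 CPM in control, a difference of 0.06 ± 0.10 (95% interval from -0.15 to 0.26).

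At CT16 no receptor was called by edgeR, against 4.66% of all tested genes. Avpr1a, Adcyap1r1 and Npy1r had an unadjusted p under 0.05, all lower in DKO, where 9.62% of all tested genes did so. No receptor had groups without overlap, against 6.97% of tested genes. The median difference was -0.16 over the 10 receptors, of which 9 had an estimate below 0. DESeq2 called 1 of the 10, Npy1r, against 7.8% of the genes with an adjusted p in that fit.

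**Figure D3:**
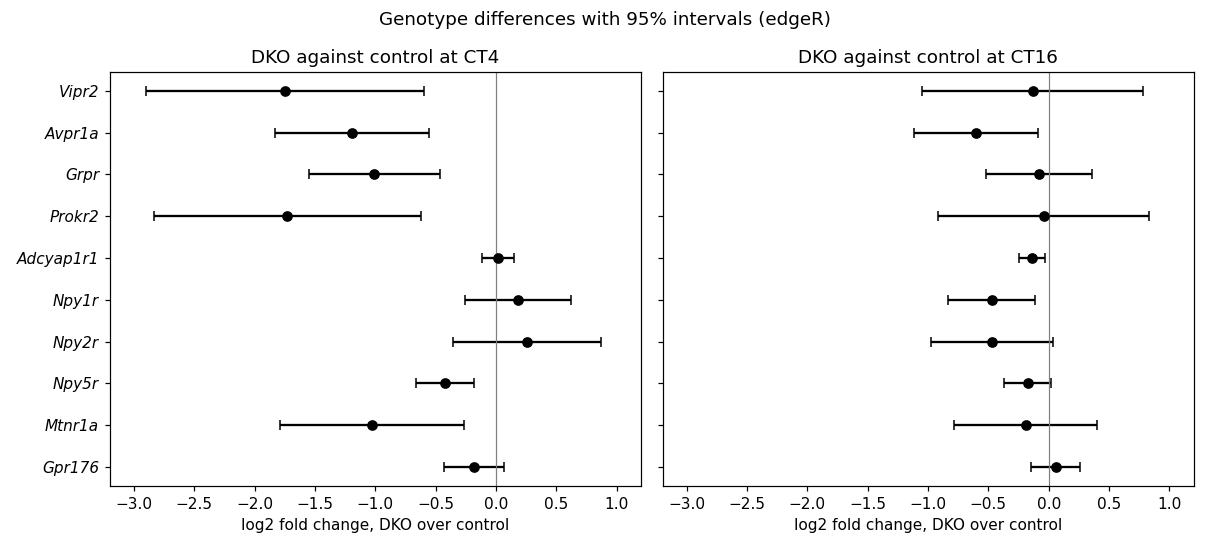
Log2 fold changes of the 10 receptors, DKO over control, with 95% intervals from edgeR, at CT4 (left) and CT16 (right). At CT4 the estimates for Vipr2 and Prokr2 lie near -1.7 with wide intervals, and those for Adcyap1r1 and Gpr176 lie near 0 with narrow ones.

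The levels of most receptors went with the SCN score of the library, across the libraries of both genotypes. The relation was not tested within either genotype alone. Over the 15 libraries, log2 CPM of Vipr2 correlated with the score at r = 0.957 (Spearman's rho 0.932), and Prokr2 at r = 0.953 (rho 0.932). Both had a permutation p of 1e-05, the smallest that 100000 permutations can give, and an adjusted p of 1e-04 over the 20 relations computed. The permutations shuffled all 15 libraries without regard to group, so the permutation p-values of all 20 relations also take in differences between groups. After subtracting group means the correlations were 0.968 for Vipr2 and 0.973 for Prokr2, and without the 2 libraries farthest from the median score they were 0.943 and 0.940. Vipr2 rose by 1.82 log2 units per unit of score. The points share their libraries and the punches behind them, and none of the 6 score genes is a receptor described here.

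Grpr (r = 0.845, rho 0.707), Mtnr1a (r = 0.808, rho 0.843), Avpr1a (r = 0.782, rho 0.689) and Gpr176 (r = 0.776, rho 0.704) also rose with the SCN score, with permutation p of 0.00093 or less for r and 0.0061 or less for rho, and adjusted p of 0.00207 or less for r and 0.00939 or less for rho. The slope of Gpr176 was 0.288 log2 units per unit of score, far flatter than that of Vipr2. Npy2r fell with the score (r = -0.749, rho -0.764, adjusted permutation p of 0.00242 for r and 0.006 for rho). Adcyap1r1 also fell with it (r = -0.587, rho -0.729, adjusted permutation p of 0.0223 and 0.006). For Npy1r (r = -0.492, rho -0.536) and Npy5r (r = 0.467, rho 0.271) the adjusted permutation p for r was 0.0687 and 0.0902. Without the 2 farthest libraries, r was 0.779 for Grpr, 0.777 for Mtnr1a, 0.832 for Avpr1a, 0.677 for Gpr176, -0.785 for Npy2r and -0.540 for Adcyap1r1.

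With the score of neighbouring nuclei the signs were turned round. Prokr2 (r = -0.819), Mtnr1a (-0.813), Vipr2 (-0.776), Gpr176 (-0.712), Avpr1a (-0.619) and Grpr (-0.567) were lower where those markers were higher, with adjusted permutation p of 0.0357 or less. Adcyap1r1 (0.638) and Npy2r (0.637) were higher there, with adjusted permutation p of 0.00880 and 0.0158. Spearman's rho ran from -0.782 for Prokr2 to 0.743 for Adcyap1r1, and that of Grpr was -0.525 (adjusted permutation p of 0.0562). Npy5r (r = -0.195) and Npy1r (r = 0.301) did not pass the test. Without the 2 libraries farthest from the median of this score, r was -0.472 for Avpr1a, -0.5003 for Grpr and 0.720 for Adcyap1r1.

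**Figure D4:**
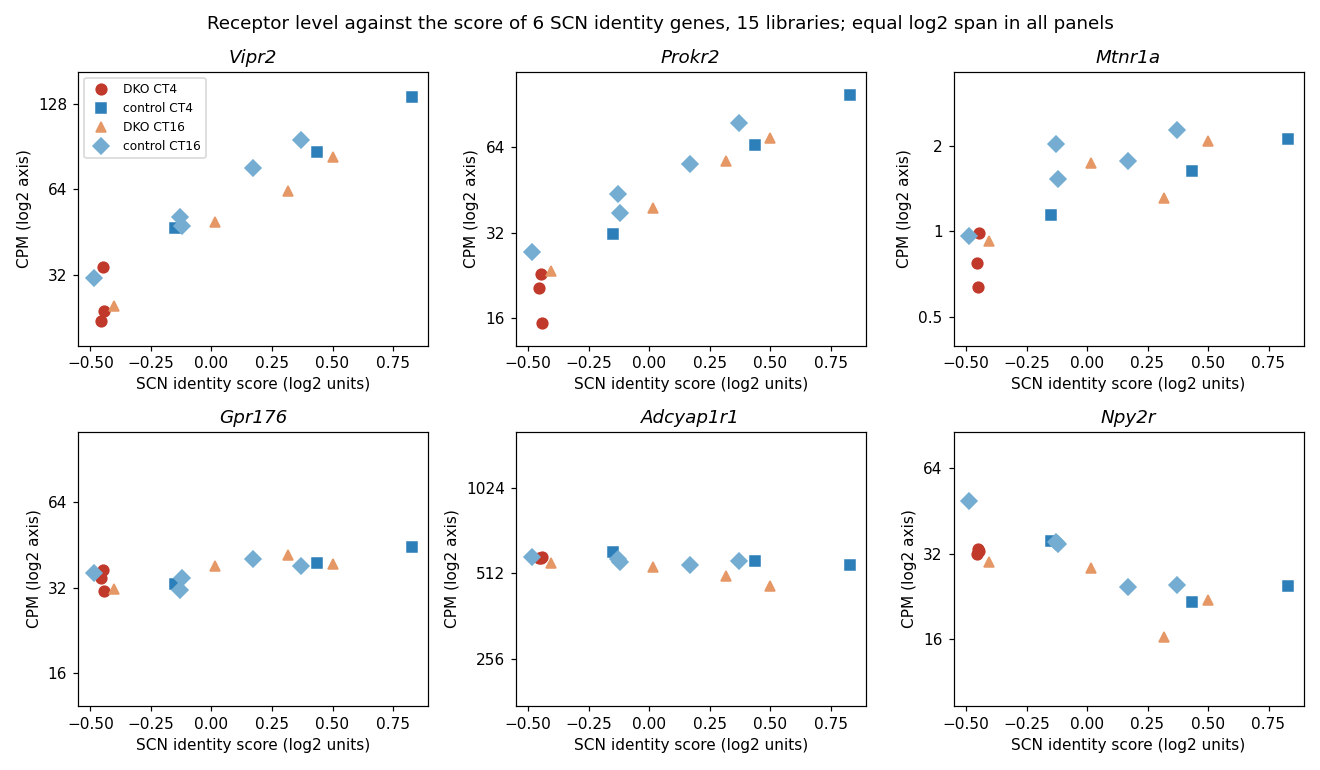
CPM of Vipr2, Prokr2, Mtnr1a, Gpr176, Adcyap1r1 and Npy2r on a log2 axis against the SCN score of the same library, 1 point per library. All panels have the same log2 span, and groups are marked by colour and shape. Avpr1a, Grpr, Npy1r and Npy5r are not drawn. Vipr2 and Prokr2 rise with the score (r = 0.957 and 0.953) and Npy2r falls (r = -0.749). The 3 DKO libraries at CT4 sit together at the low end of the score.

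The genotype differences changed when the SCN score was added to the model. At CT4 Vipr2 then differed by -0.16 ± 0.16 and Prokr2 by -0.18 ± 0.13, against -1.75 ± 0.53 and -1.73 ± 0.51 without the score. Avpr1a (-0.41 ± 0.20), Grpr (-0.38 ± 0.23), Npy5r (-0.39 ± 0.15) and Mtnr1a (-0.13 ± 0.35) stayed below 0, and none of the 10 receptors was called. Since the score did not overlap between genotypes at CT4, genotype and score cannot be told apart there. The score of neighbouring nuclei overlapped between genotypes at CT4 only through control replicate 1 (0.689, with the lowest DKO library at 0.651). The other controls were at -0.277 and -0.957, so genotype and this score can hardly be told apart there either. With it in place of the SCN score the differences were larger, at -0.82 ± 0.44 for Vipr2, -0.85 ± 0.42 for Prokr2, -0.78 ± 0.26 for Avpr1a, -0.71 ± 0.26 for Grpr and -0.44 ± 0.13 for Npy5r, and none was called. The SCN score is itself made of genes measured in the same libraries. At CT4, 5 of its 6 genes had an unadjusted p under 0.05 in edgeR, all lower in DKO, where 8.54% of all tested genes did so. In edgeR, 0 of the 6 were called, against 1.28% of all tested genes. In DESeq2 3 were (Lhx1, Rorb and Zfhx3), against 3.59%.

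At CT16, where the score overlapped between genotypes, the same model called 3 receptors lower in DKO, against 5.81% of all tested genes called in either direction. Avpr1a differed by -0.68 ± 0.13 (adjusted p of 0.00312 in edgeR), Vipr2 by -0.41 ± 0.10 (0.0296) and Prokr2 by -0.31 ± 0.08 (0.0366). With the score of neighbouring nuclei in its place, Avpr1a was called alone of the 10 (-0.69 ± 0.19, adjusted p of 0.0486 in edgeR). In that fit 5.17% of all tested genes were called, and Vipr2 differed by -0.35 ± 0.30. Without either score the differences were -0.61 ± 0.24 for Avpr1a, -0.13 ± 0.42 for Vipr2 and -0.04 ± 0.40 for Prokr2. Of the 6 SCN score genes, 4 had estimates above 0 in DKO at CT16 (median 0.23), as had 8529 of the 16910 tested genes. The slope of the SCN score was fitted to all 15 libraries, so those at CT4, where it did not overlap between genotypes, enter it. What the 3 calls owe to the score genes was not tested.

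**Figure D5:**
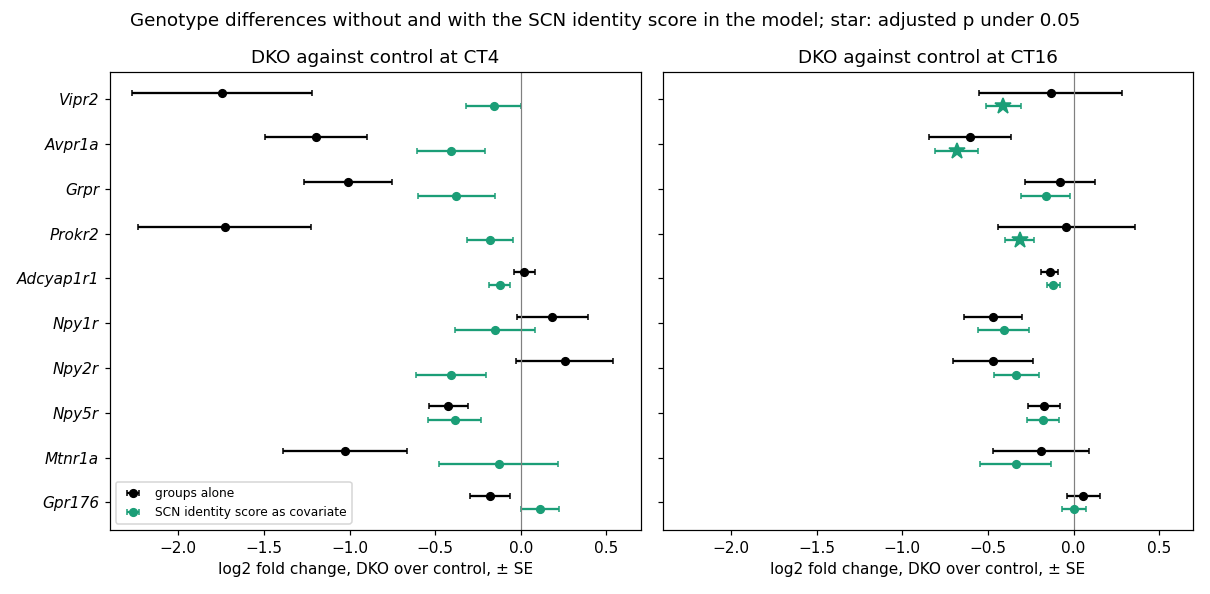
Log2 fold changes of the 10 receptors, DKO over control, ± SE, without and with the SCN score in the edgeR model, at CT4 (left) and CT16 (right), with stars at an adjusted p under 0.05. At CT4 Vipr2 and Prokr2 move from near -1.7 to near -0.2, and at CT16 Avpr1a, Vipr2 and Prokr2 are starred.

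Between CT16 and CT4 no receptor was called in either genotype by edgeR or DESeq2. In control, 4.21% of all tested genes were called and 2 of the 10 receptors had an unadjusted p under 0.05, against 19.9% of all tested genes. Npy1r was higher at CT16 in every library (22.2, 25.7, 22.7, 22.5 and 38.4 CPM at CT16, against 21.4, 19.3 and 17.8 CPM at CT4), a difference of 0.43 ± 0.19 (adjusted p of 0.212 in edgeR). Without control CT16 replicate 5 it was 0.26 ± 0.13 (unadjusted p of 0.0670 in edgeR). Of all tested genes, 7.99% were higher in this way. Grpr was lower at CT16, by -0.54 ± 0.22 (adjusted p of 0.188 in edgeR), with overlapping groups, and by -0.33 ± 0.24 without control CT4 replicate 2. Vipr2 (-0.57 ± 0.45, 95% interval from -1.55 to 0.40), Prokr2 (-0.42 ± 0.43) and Avpr1a (-0.20 ± 0.25) had intervals that include 0. With the SCN score in the model Vipr2 was at 0.18 ± 0.12 and Prokr2 at 0.34 ± 0.10 (adjusted p of 0.0732 in edgeR), so both changed sign, and neither was called in either fit. Without the score, the estimates for Mtnr1a (0.08 ± 0.31), Adcyap1r1 (-0.01 ± 0.06) and Gpr176 (-0.11 ± 0.10) lay near 0.

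In DKO, 1.8% of all tested genes were called between CT16 and CT4, and 3 receptors had an unadjusted p under 0.05, against 18.6% of all tested genes. Prokr2 had 39.1, 57.2, 23.6 and 69.3 CPM at CT16, all above the 22.9, 15.4 and 20.5 CPM at CT4, with a difference of 1.26 ± 0.48 (adjusted p of 0.192 in edgeR). Mtnr1a was higher by 0.91 ± 0.34 (adjusted p of 0.172) with 1 CT16 library below the highest CT4 library. Adcyap1r1 was lower at CT16 in every library, by -0.17 ± 0.06 (adjusted p of 0.130 in edgeR). Without DKO CT16 replicate 3 the difference for Adcyap1r1 was -0.21 ± 0.06 and was called (adjusted p of 0.0321 in edgeR, against 8.61% of all tested genes). Grpr was also higher in every CT16 library and Npy2r lower, and the shares of all tested genes were 8.32% for higher and 6.38% for lower. The SCN score also differed, at -0.404 to 0.501 at CT16 and -0.455 to -0.445 at CT4 in DKO. With it in the model the difference was -0.07 ± 0.14 for Vipr2 and 0.20 ± 0.11 for Prokr2, and no receptor had an unadjusted p under 0.05.

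Whether the genotype difference itself changed with time was tested as an interaction, in which 2 of all tested genes, or 0.0118%, were called. None of the 10 receptors was called by edgeR or by DESeq2, and 4 had an unadjusted p under 0.05 in edgeR, against 15.1% of all tested genes. These were Prokr2 (1.69 ± 0.64, adjusted p of 0.252), Vipr2 (1.61 ± 0.66, 0.285), Grpr (0.93 ± 0.33, 0.207) and Npy1r (-0.66 ± 0.27, 0.270), where a positive value means a higher DKO level, relative to control, at CT16 than at CT4. With the SCN score in the model none of the 10 had an unadjusted p under 0.05. The smaller difference of Vipr2 or Prokr2 at CT16 was therefore not shown to differ from that at CT4.

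The transcripts of the peptides that these receptors bind were set beside them. These are transcripts in the punches, and the cells that made them were not told apart. Neuropeptide Y and PACAP reach the SCN in axons from elsewhere, so Npy and Adcyap1 transcripts here do not measure that supply. Of 12 ligand genes and enzymes of melatonin synthesis, 8 were tested. None was called by edgeR in any of the 5 comparisons. At CT4, 5 had an unadjusted p under 0.05 in edgeR, all lower in DKO, where 8.54% of all tested genes did so. At CT16 it was 1, also lower in DKO, against 9.62%. Between times it was 1 in DKO and 0 in control, against 18.6% and 19.9% of all tested genes. In the interaction it was 1, against 15.1%. Vip had 27.9, 22.3 and 24.6 CPM in DKO at CT4 and 39.3, 129.9 and 92.2 CPM in control, a difference of -1.80 ± 0.62 (adjusted p of 0.199 in edgeR), and was the only ligand called by DESeq2 in any comparison. These values lie beside those of its receptor Vipr2, with the same control library lowest. Grp differed by -1.46 ± 0.49 and Prok2 by -2.83 ± 1.06 at CT4, next to -1.01 ± 0.26 for Grpr and -1.73 ± 0.51 for Prokr2. Prok2 had only 14 to 331 reads per library. At CT4 it had 0.609, 0.713 and 0.417 CPM in DKO and 0.831, 2.26 and 9.60 CPM in control, so replicate 3 weighs most in the control mean. Prokr2 was highest among these controls in replicate 2 instead (98.2 CPM). Avp (0.51 ± 0.71), Adcyap1 (0.46 ± 0.28) and Npy (1.29 ± 1.38) had estimates above 0 at CT4, while their receptors gave -1.20 ± 0.30 for Avpr1a, 0.02 ± 0.06 for Adcyap1r1, 0.18 ± 0.21 for Npy1r, 0.26 ± 0.28 for Npy2r and -0.42 ± 0.11 for Npy5r. Prok1, Pyy, Ppy and Asmt had at most 6 reads in a library and were not tested.

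By their deviations from group means over the 15 libraries, the genes most like Vipr2 were Nsmf (r = 0.984), Prkg2 (0.983) and Vip (0.979), its own ligand. Those most like Prokr2 were Syt10 (0.976), which is 1 of the 6 score genes, Bhlhe22 (0.973) and Vip (0.973). Between the receptors, the same measure was 0.972 for Vipr2 and Prokr2, 0.857 for Vipr2 and Avpr1a and 0.781 for Vipr2 and Mtnr1a, and -0.788 for Vipr2 and Npy2r. Npy1r and Npy2r followed each other at 0.751, while Npy5r reached at most 0.355 with any other receptor described here. For Npy2r the most like genes were Ltbp1 (0.945), Pgr15l (0.939) and Gabrq (0.933), and for Adcyap1r1 Plxna2 (0.966), Adam23 (0.943) and Ptprt (0.942). For Avpr1a, Grpr, Gpr176, Mtnr1a, Npy5r and Npy1r the closest genes reached 0.926 (Ankhd1), 0.941 (Pskh1), 0.929 (Zbtb41), 0.908 (Trpc4ap), 0.916 (Gm25500) and 0.890 (Polr1e).

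Among 10 tested relatives of the same families, none was called at CT4 by edgeR or DESeq2. In edgeR, 2 had an unadjusted p under 0.05 there, 1 higher and 1 lower in DKO, against 2501 of the 16910 tested genes. At CT16 edgeR called 1, against 4.66% of all tested genes. Sctr, the secretin receptor and a relative of Vipr2, rose in DKO at CT16 by 1.77 ± 0.23 (7.37 ± 1.58 CPM in DKO and 2.16 ± 0.656 CPM in control, SD, n = 4 and 5, adjusted p of 0.000169 in edgeR). Npy6r, a further neuropeptide Y receptor that is intact in mice, had a difference of -1.73 ± 0.64 at CT4 (adjusted p of 0.223 in edgeR). It went with Vipr2 in direction and was the lowest of the 10 relatives. Most relatives went the other way: 8 of the 10 had estimates above 0 at CT4 (median 0.48, highest 3.34), against 8372 of the 16910 tested genes. Mtnr1b, the MT2 melatonin receptor, had at most 4 reads in a library and was not tested. Of 28 other hypothalamic neuropeptide receptors, none was called at CT4 by edgeR or DESeq2. In edgeR, 3 had an unadjusted p under 0.05 at CT4, beside the same 2501 of all 16910 tested genes. Their median difference at CT4 was 0.14 over the 28, against -0.72 for the 10 receptors described here. At CT16 Sstr4, a somatostatin receptor (-0.62 ± 0.16, adjusted p of 0.0382), and Calcr, the calcitonin receptor (-0.80 ± 0.21, adjusted p of 0.0487), fell in DKO, where 4.66% of all tested genes were called. Of the 28 estimates, 25 lay below 0, against 8381 of the 16910 tested genes.

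Of 40 genes downstream of such receptors, 1 was called at CT4, against 1.28% of all tested genes. This was Adcy3, an adenylyl cyclase, which fell by 0.32 on the log2 scale in DKO (SE 0.07, adjusted p of 0.0386 in edgeR). At CT16, 4 of the 40 were called, against 4.66% of all tested genes. Gnas, encoding Gs alpha through which VPAC2 and PAC1 raise cAMP, fell by 0.28 (SE 0.06), and Prkaca, the catalytic subunit of protein kinase A, fell by 0.25 (SE 0.05). Plcb3, a phospholipase C through which Gq-coupled receptors such as V1a signal, rose by 0.35 ± 0.07. Rgs16, which shortens Gi signalling in the SCN, rose by 2.39 ± 0.34 (adjusted p of 0.00193). It was also called between CT16 and CT4 in control, at -1.72 ± 0.36.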

How the data were processed

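RNA of SCN punches was sequenced in 15 libraries, with 2 to 4 punches pooled in each, per the labels. The authors deposited raw read counts per gene, which are whole numbers, and the exonic length of each gene in bases, per the file headers. STAR, featureCounts, DESeq2 and the build mm10 are named in the submitters' processing notes. The sources used here do not give versions, annotation or strand setting. Columns were matched to samples by their labels, and 0 columns of samples were left unused. The labels do not tie pools to mice, and p-values therefore cover the variation among pooled libraries, part of which may be technical.

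Low counts were removed with filterByExpr over the 4 groups. In R 4.3.3, edgeR 4.0.16 computed TMM factors and fitted 1 model of 4 group means to the 15 libraries (11 residual degrees of freedom, robust quasi-likelihood test), and 5 contrasts were tested with Benjamini-Hochberg adjustment over 16910 genes. A gene was called at an adjusted p under 0.05. The script was tested on simulated data. The standard error is the absolute log2 fold change over the square root of F. CPM used TMM-scaled library sizes, log2 CPM a prior count of 2, and CPM per kb the deposited exonic length. Correlations used 100000 permutations, which shuffled all 15 libraries without regard to group. Within groups, chi-square per degree of freedom between libraries was 6.61 to 124.6, so each library counted as 1 replicate. Receptor promoters were taken from RefSeq (GRCm38.p6), where 10 of 10 matched by symbol.

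The 10 receptors were named whatever their values. Of 13 other lists with 168 genes, called members or those of smallest p were to be named, not all of which are printed, and marker lists are given by their scores. Also named were, for each receptor, up to 3 genes of highest correlation. The receptors, lists, scores, rules and libraries left out were chosen with earlier results of these data known. Alternatives were RLE factors, DESeq2 1.42.0, no filter on low counts, a fit to just the groups compared, a block for the replicate number, either tissue score as covariate, and libraries left out.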

Additional observations from a re-analysis of the deposited data

Results flagged for a closer look

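Among 24 checks of a group of 4 or 5 libraries (each receptor and both tissue scores in each group at CT16), 2 found 1 library far from the others, where chance gives about 1 in 20. Npy1r stood at 38.4 CPM in control CT16 replicate 5, with the next library at 25.7 CPM and the lowest at 22.2 CPM. The score of markers of neighbouring nuclei stood at 1.189 in DKO CT16 replicate 3, with the next library at -0.749 and the lowest at -1.11. In that same library Vipr2 (25.0 CPM), Prokr2 (23.6 CPM), Avpr1a (6.82 CPM), Mtnr1a (0.924 CPM) and Gpr176 (31.6 CPM) were lower than in the other DKO libraries at CT16, and Npy2r (30.0 CPM) and Adcyap1r1 (556 CPM) were higher. The part of those neighbouring nuclei in these levels was not tested.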

How the results depend on the processing

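The fit reported above called 0 of the 10 receptors in each comparison. At CT4 the number called was 5 with DESeq2, 2 in a fit on the compared groups alone and 1 with the replicate block (Avpr1a). It was 3 without the 3 libraries left out together, and 0 to 2 without single libraries. At CT16 it was 1 with DESeq2, 3 with the SCN score and 1 with the score of neighbouring nuclei. Between CT16 and CT4 in DKO it was 0 to 1 without single libraries. All other settings called 0. Of 1140 values of single receptors under 23 settings, 21 gained a call and 45 changed sign without being called in either fit. None could lose a call, since the fit above called 0. The largest of the values that changed sign was the Prokr2 interaction, at 1.69 in that fit and -0.13 with the SCN score in the model. Over all tested genes, the 217 calls at CT4 became 584 with DESeq2, 794 with the compared groups alone, 104 with the replicate block, 34 with the SCN score, 41 with that of neighbouring nuclei, 610 without the 3 libraries, and 16 to 323 without single libraries. The 788 at CT16 became 1267, 366 and 503 under the first 3 of these, 419 without the 3 libraries and 384 to 1327 without single ones. The 712 between times in control became 1317 with DESeq2, 379 with the block and 236 to 1059 without single libraries. The 304 in DKO became 874 with DESeq2, 47 alone, 159 with the block, 130 and 71 with the SCN and neighbouring scores, 1182 without the 3 libraries and 103 to 1456 without single ones. The 2 of the interaction became 360 with DESeq2, 6 with no filter, 1 with the block, 0 with the SCN score, 424 without the 3 libraries and 1 to 301 without single ones. The cause of these shifts was not tested. Libraries with the same replicate number did not deviate together (correlations of -0.184 to 0.138), so the numbers are no pairing. Mtnr1a had the fewest reads of the 10 receptors, at 25 to 118 per library.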
